A study of Equus caballus with 23 samples.

Results

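Lactate is a fuel that muscle fibres both release and take up, and ketone bodies are a fuel that muscle fibres take up. The 8 genes described here act in the handling of these fuels, and were followed in Arabian horse muscle during race training. LDHA and LDHB encode the subunits of lactate dehydrogenase. SLC16A7, SLC16A1 and SLC16A3 encode the monocarboxylate transporters MCT2, MCT1 and MCT4, and BSG encodes basigin, the chaperone of MCT1 and MCT4. BDH1 and OXCT1 encode mitochondrial enzymes of ketone body use. The genes were chosen by name for these functions, with earlier results of these data known. They are 8 of the 26991 genes in the deposited count table, and all 8 were among the 11545 genes that passed the filter on low counts.

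RNA was sequenced from needle biopsies of the gluteus medius, the large muscle of the horse's rump. Libraries were compared between 3 stages of training. The stage called T0 had 5 libraries from untrained horses at an age of 2.5 years, 3 from males and 2 from females. T1 had 8 libraries, 4 per sex, taken at 3 years of age once the intense gallop phase was over and before flat racing began. T2 had 10 libraries, 7 from males and 3 from females, taken when the racing season ended, with an age of 3 years in the labels as well. All horses were of 1 breed, and the labels name no other treatment. Each library has its own number, which does not identify a horse. No label says if a horse gave several biopsies, so the libraries were treated as unpaired, and any repeated horse was not accounted for. T0 differs from T1 and T2 in age as well as in training, and the effects of age and training cannot be told apart in comparisons with T0. T1 was taken before and T2 after the racing season, and the labels give no age in months. Time of year and months of age therefore cannot be told apart from training between T1 and T2. Each p-value for a difference below sets that difference against the spread between these libraries, which may be partly technical.

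Lactate dehydrogenase converts pyruvate to lactate and back, and its isoenzymes are mixtures of the M subunit from LDHA and the H subunit from LDHB. Fast glycolytic fibres are known for M-rich enzyme and for MCT4, a low-affinity transporter suited to lactate release. Slow oxidative fibres are known for H-rich enzyme and for MCT1, and MCT2 binds its substrates with high affinity. In mitochondria, BDH1 interconverts hydroxybutyrate and acetoacetate, and OXCT1 activates acetoacetate with coenzyme A for oxidation.

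Library totals ranged from 12185608 to 23641809 counts. Depth differed by stage, with a median total of 14550000 in T0, 21540000 in T1 and 16030000 in T2. Mitochondrially encoded genes took 36% to 54.9% of counts in T0, 44.7% to 56.7% in T1 and 42.5% to 52.3% in T2. Leaving those genes out changed no call for the 8 genes. All 6 defining genes of skeletal muscle (ACTA1, CKM, MB, DES, TTN and NEB) were detected, with a summed level of at least 36130 CPM in every library. CPM are counts in each 1000000 of the library after TMM scaling, a correction for differences in RNA composition. The TMM factors ran from 0.7489 to 1.448 in T0, 0.6604 to 1.071 in T1 and 0.8025 to 1.221 in T2. No fit was made without scaling, and small differences between stages, such as those of BSG below, depend on it. In T1, libraries m3 and m11 stood apart from the other 6 in several of the genes below, so results that rest on them are also given without them. In T0, m12 had the highest sum of slow fibre genes, as described further on.

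LDHA fell and LDHB rose from T0 to T1, and both moved back by T2. LDHA (ENSECAG00000020669) lies on chromosome 7 from 86624979 to 86634392, in the coordinates of the authors' tables (build: not given in the sources used here). Its level in T0 was 1106 CPM in m8, 1428 in m9, 1552 in m12, 2373 in m13 and 2579 in m10. In T1 it had a low of 179.5 CPM in m3, a median of 881 and a high of 1026 in m6, and m11 was next to m3 with 249.3. Every T1 library was below every T0 library. In T2 LDHA again spanned higher values, from 1050 CPM in m23 over a median of 1755 to 2749 in m17, and no T2 library was as low as the highest of T1. LDHA had a log2 fold change of -1.30 ± 0.33 (SE) for T1 against T0 (edgeR quasi-likelihood F test, adjusted p = 0.0175) and of 1.26 ± 0.28 for T2 against T1 (adjusted p = 0.00221). Adjusted p-values are Benjamini-Hochberg values over all 11545 genes, with a threshold of 0.05. Without m3 and m11 the LDHA values were -0.98 (edgeR adjusted p = 0.0158) and 0.94 (adjusted p = 0.00153). The LDHA difference between T1 and T0 was no longer called without T0 library m10 (-1.12, edgeR adjusted p = 0.0717), nor with only these 2 stages in the fit (adjusted p = 0.0562). In bulk tissue, fewer cells of a type and less RNA per cell cannot be told apart, which holds for every gene below.

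LDHB (ENSECAG00000011331, chromosome 6, 47815741 to 47837336) showed the opposite order of stages. The T0 libraries had 65.8 CPM (m13), 95.75 (m8), 177.7 (m9), 205.3 (m10) and 312.7 (m12). The T1 libraries ranged from 397.9 CPM in m4 over a median of 618.2 to 2345 in m3, with 929 in m2 as the next value. The lowest T1 library was above all of T0. The T2 libraries ranged from 149.8 CPM in m19 over a median of 253.5 to 545.5 in m23, and 8 of 10 were below all of T1; the exceptions were m23 and m20. LDHB rose 5.00-fold from T0 to T1 (log2 fold change 2.32 ± 0.44, edgeR adjusted p = 0.00367). It fell by 1.59 on the log2 scale from T1 to T2 (SE 0.33, edgeR adjusted p = 0.00133). Without m3 and m11 these values were 1.84 (edgeR adjusted p = 0.00886) and -1.10 (adjusted p = 0.00855).

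Within a library, LDHB made up a larger part of the counts of both subunit genes in T1. Its share was 2.7% in m13, 7.38% in m10, 7.96% in m8, 11.1% in m9 and 16.8% in m12 of T0. In T1 the share ran from 28.2% in m4 to 92.9% in m3, with a median of 41.05% and 77.6% in m11. In T2 it ran from 6.06% in m19 to 34.2% in m23, with a median of 12.86%. T0 and T1 did not overlap in this share, while T2 library m23 fell inside the T1 range. These are shares of counts, not corrected for transcript length, and no test was made of them. The summed level of LDHA and LDHB overlapped between all stages. Its median was 1864 CPM in T0, 1498 in T1 and 1999 in T2, and the lowest and highest sums of any library were 1113 and 2933 CPM. The plot of LDHB against LDHA shows this arrangement, with m3 and m11 at its upper left.

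**Figure D1:**
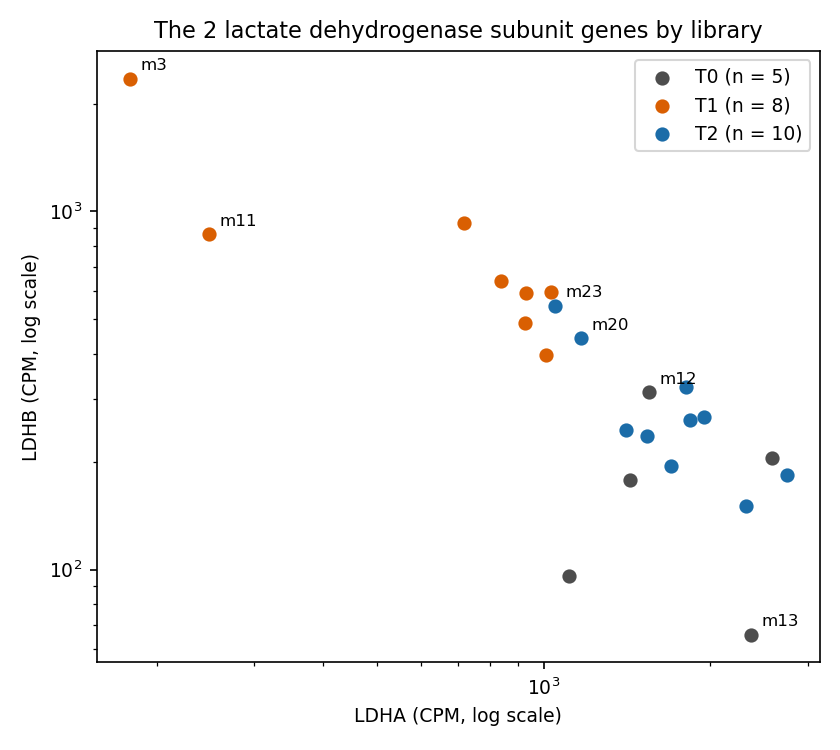
LDHB against LDHA, both in CPM on log axes, with 1 point per library coloured by stage (T0 n = 5, T1 n = 8, T2 n = 10). T1 libraries lie at lower LDHA and higher LDHB, from m3 (179.5 and 2345 CPM) to the edge of the T2 libraries m23 and m20.

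Of the transporter genes, SLC16A7 and SLC16A1 rose from T0 to T1 and fell from T1 to T2, and SLC16A3 had its lowest values in T1. SLC16A7 (ENSECAG00000021778, chromosome 6, 76824896 to 76883398) encodes MCT2. Its counts were low, from 7 to 613 per library, so counting error adds to the spread of the lowest values. In T0 it had 0.731 CPM in m13, 0.742 in m12, 4.32 in m9, 5.31 in m10 and 5.82 in m8. In T1 the values ran from 8.49 CPM in m6 over a median of 15.99 to 38.7 in m11. In T2 they ran from 1.76 CPM in m17 over a median of 4.57 to 7.29 in m22. All 8 T1 libraries were above all libraries of T0 and of T2. The rise of SLC16A7 from T0 to T1 was 5.07-fold (log2 fold change 2.34 ± 0.46, edgeR adjusted p = 0.00444). The fall from T1 to T2 was -1.93 ± 0.35 on the log2 scale (edgeR adjusted p = 0.000497). SLC16A7 kept both calls when any 1 library was left out.

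SLC16A1 (ENSECAG00000021627, chromosome 5, 55580924 to 55603370) encodes MCT1, the transporter of oxidative fibres. The T0 values were 59.84 CPM in m13, 66.59 in m9, 69.34 in m10, 76.83 in m8 and 129.2 in m12. The T1 values ran from 134.9 CPM in m7 over a median of 155.1 to 241.2 in m11, and none was as low as m12. The T2 values ran from 74.07 CPM in m19 over a median of 114.1 to 156.6 in m21, so that T2 lay between the other stages and overlapped both. SLC16A1 rose 2.16-fold from T0 to T1 (log2 fold change 1.11 ± 0.21, edgeR adjusted p = 0.00292). It was number 48 of all 11545 genes by p in that comparison, the highest rank among the 8. Its fall to T2 was smaller, -0.56 ± 0.16 (edgeR adjusted p = 0.0128), and was not called without m3 and m11 (-0.42, adjusted p = 0.0643).

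SLC16A3 (ENSECAG00000009524, chromosome 11, 985123 to 988276) encodes MCT4, the transporter of glycolytic fibres. In T0 it had 151.6 CPM in m12, 265.7 in m9, 275.4 in m13, 284 in m10 and 378.8 in m8. In T1 it had 11.04 CPM in m3 and 29.9 in m11, a median of 143.4 and a high of 253.1 in m4. Every T0 library but m12 was above all of T1. In T2 it ran from 193.5 CPM in m23 over a median of 286.1 to 425.6 in m14, and 7 of 10 libraries were above all of T1. SLC16A3 did not pass the test between T0 and T1 (log2 fold change -0.91 ± 0.44, 95% interval -1.81 to -0.01, edgeR adjusted p = 0.226). SLC16A3 rose from T1 to T2 by 1.02 ± 0.38 on the log2 scale (edgeR adjusted p = 0.0463), close to the threshold. That call was lost in 15 of the 23 fits that left out 1 library, with adjusted p up to 0.0727 (without m14). The 8 fits that kept it left out m3, m4, m5, m7, m8, m12, m20 or m23. Without m3 and m11 the rise of SLC16A3 was 0.66 with adjusted p = 0.0125 by edgeR. It was not called with no filter on low counts (edgeR adjusted p = 0.104), with sex as a covariate (0.0586) or with only these 2 stages in the fit (0.0665).

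BSG was not called between any of the stages. BSG (ENSECAG00000012389) lies on the unplaced sequence Un0167 from 80873 to 82113. Basigin carries MCT1 and MCT4 to the cell surface. In T0 it had 102.8 CPM in m8, 103.4 in m9, 105.2 in m10, 110.1 in m12 and 135.1 in m13. In T1 it ran from 106 CPM in m11 over a median of 145 to 163.9 in m3, and in T2 from 104.2 in m15 over a median of 139.7 to 164.1 in m14. The stages overlapped, though 6 of 8 T1 libraries and 6 of 10 T2 libraries were above all of T0. The BSG log2 fold change was 0.34 ± 0.13 for T1 against T0 (95% interval 0.07 to 0.61, edgeR adjusted p = 0.121) and -0.04 ± 0.11 for T2 against T1 (interval -0.27 to 0.18, adjusted p = 0.790). With limma voom and sample weights, BSG passed for T1 against T0 (adjusted p = 0.0282) and for T2 against T0 (adjusted p = 0.028).

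Of the ketone genes, BDH1 rose from T0 to T1, and both BDH1 and OXCT1 fell from T1 to T2. BDH1 (ENSECAG00000004666) lies on chromosome 19 from 32257039 to 32340921. The T0 values were 0.956 CPM in m13, 2.79 in m10, 5.09 in m12, 7.08 in m8 and 8.03 in m9. In T1 BDH1 reached 100 CPM in m3 and 66.5 in m11, while the next library, m1, had 26.0, the median was 15.4 and the low was 5.13 in m6. Apart from m6, the T1 libraries were above all of T0. In T2 BDH1 ran from 3.29 CPM in m17 over a median of 6.19 to 10.3 in m20. The rise from T0 to T1 was 6.42-fold (log2 fold change 2.68 ± 0.65, edgeR adjusted p = 0.0175), and the difference of T2 from T1 was -2.29 ± 0.49 (adjusted p = 0.00194). The size of both BDH1 differences depended on m3 and m11: without them the values were 1.53 (edgeR adjusted p = 0.0438) and -1.13 (adjusted p = 0.0172). BDH1 was not called between T0 and T1 without T0 library m10 (2.54, edgeR adjusted p = 0.0574), nor with only these 2 stages in the fit (adjusted p = 0.0884).

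OXCT1 (ENSECAG00000018312, chromosome 21, 24524679 to 24651408) differed less. It had 28.18 CPM in m8, 40.59 in m12, 54.53 in m9, 54.87 in m10 and 63.27 in m13 of T0. In T1 it ran from 41.68 CPM in m6 over a median of 53.24 to 112.5 in m11, with 102.2 in m3 and 88.7 in m2. The other 5 T1 libraries were inside the T0 range. In T2 OXCT1 ran from 22.87 CPM in m21 over a median of 33.91 to 52.47 in m20, and 8 of 10 libraries were below all of T1. The difference between T1 and T0 was not called (0.49 ± 0.25, 95% interval -0.02 to 1.01, edgeR adjusted p = 0.249). OXCT1 fell from T1 to T2, with a log2 fold change of -0.96 ± 0.20 (edgeR adjusted p = 0.00131), or -0.66 without m3 and m11 (adjusted p = 0.0106).

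**Figure D2:**
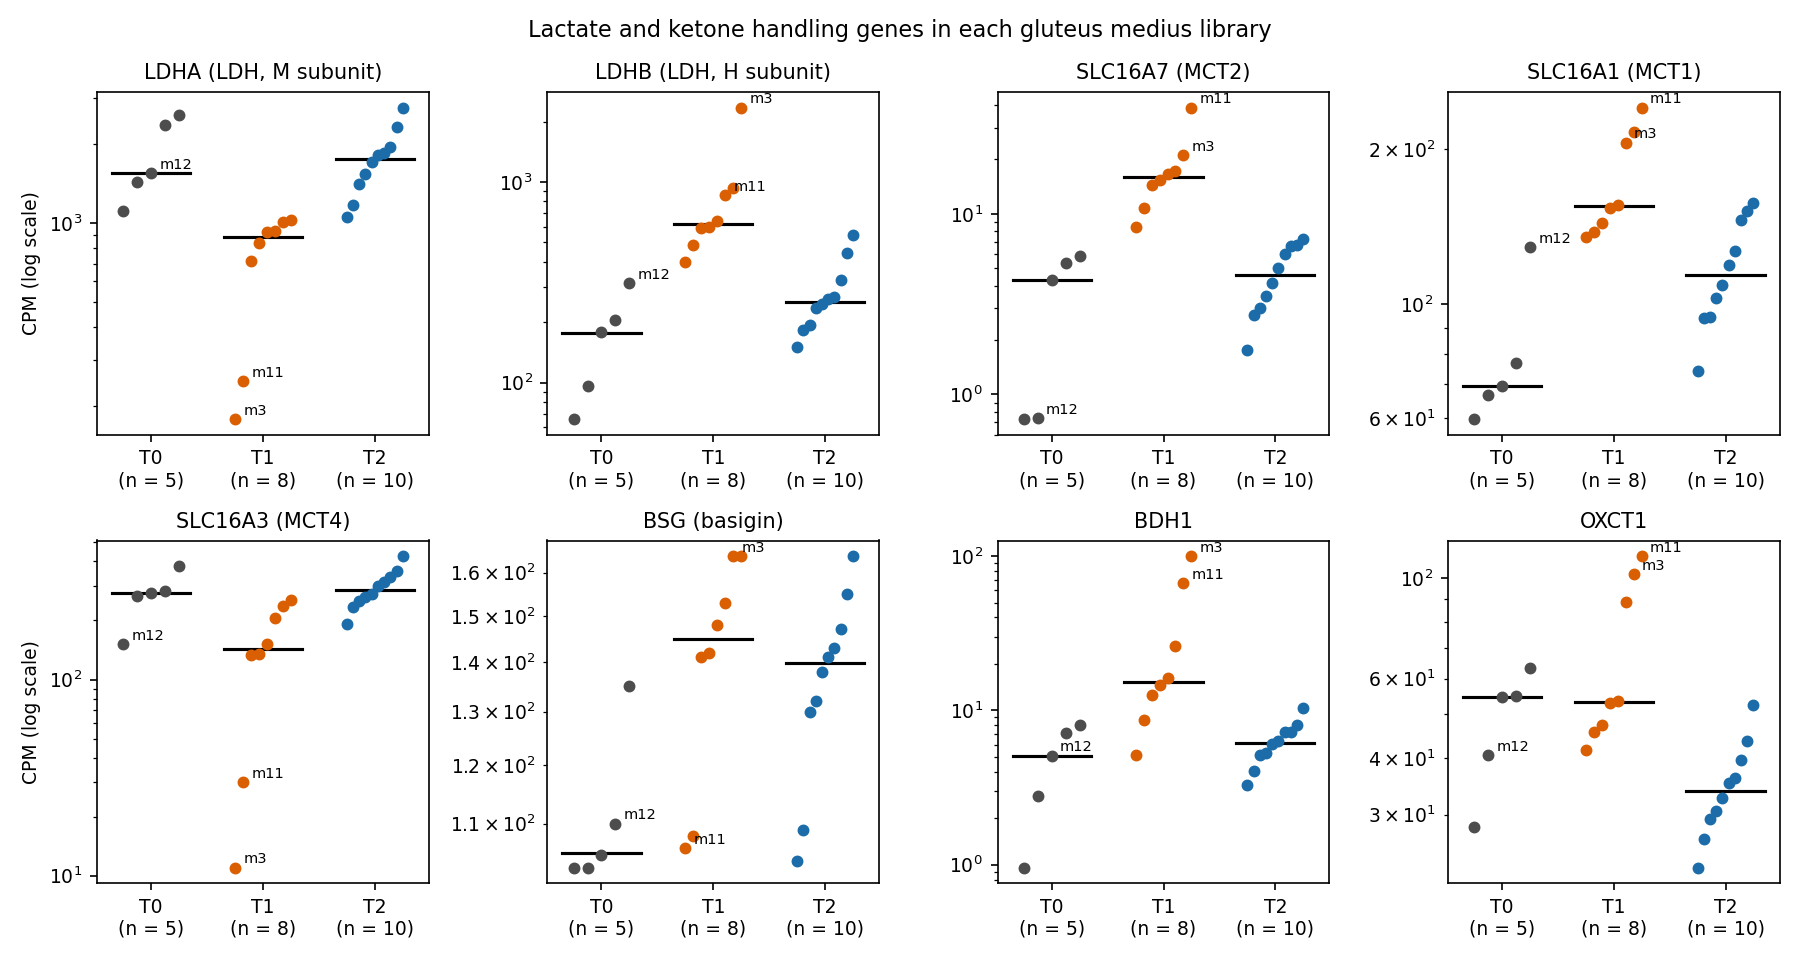
Level of each of the 8 genes in every library, in CPM on log axes, with 1 point per library by stage and a black line at the group median; m3, m11 and m12 are named. LDHB, SLC16A7 and SLC16A1 have all T1 points above all T0 points, LDHA has all T1 points below, and BSG overlaps at every stage.

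Counted together, 4 of the 8 genes rose from T0 to T1 (LDHB, SLC16A7, SLC16A1 and BDH1), 1 fell (LDHA) and 3 were not called. Over all genes tested, 6.91% were called in that comparison, 3.57% higher and 3.34% lower. T0 and T1 did not overlap for 4 of the 8 genes, against 2.98% of all genes (1.86% with T1 above T0 and 1.12% with T1 below). The median absolute log2 fold change was 1.21 over the 8 genes and 0.21 over all genes tested. From T1 to T2, 2 genes rose (LDHA and SLC16A3), 5 fell (LDHB, SLC16A7, SLC16A1, BDH1 and OXCT1) and BSG was not called. There the background was higher, with 27.6% of all genes called, 12.6% higher and 15.1% lower. T1 and T2 did not overlap for LDHA and SLC16A7, against 2.23% of all genes (0.788% with T2 above T1 and 1.45% with T2 below). The median absolute log2 fold change was 1.14 over the 8 genes and 0.28 over all genes. Both comparisons use the T1 libraries, so their opposite signs are not independent of each other. Since the 8 genes were chosen with earlier results known, the values over all genes give scale and are no test of the group. Each of the 8 genes had 1 transcript in the transcript table, with the same counts as the gene in all 23 libraries.

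None of the 8 genes was called between T2 and T0 by edgeR, where 16% of all genes were called, 6.73% higher and 9.30% lower. Nor were T0 and T2 without overlap for any of them, against 2.67% of all genes (0.944% with T2 above T0 and 1.72% with T2 below). SLC16A1 came closest, at 0.55 ± 0.20 with a 95% interval of 0.15 to 0.95 (edgeR adjusted p = 0.054). It passed the threshold with DESeq2 (adjusted p = 0.0286), with limma voom (adjusted p = 0.00873) and without T0 library m12 (0.79, edgeR adjusted p = 0.00835), and also without m3 (0.0447), m11 (0.0446) or m19 (0.03). LDHB passed without m3 and m12 (1.08, edgeR adjusted p = 0.0229). LDHA had a log2 fold change of -0.04 with an interval of -0.70 to 0.61, and SLC16A3 one of 0.12 with an interval of -0.77 to 1.001. The intervals of LDHB (-0.09 to 1.55), SLC16A7 (-0.48 to 1.30) and BDH1 (-0.84 to 1.63) also covered 0. BSG (0.29, 95% interval 0.03 to 0.55, edgeR adjusted p = 0.111) and OXCT1 (-0.47, interval -0.95 to 0.01, adjusted p = 0.165) were not called either. The intervals of LDHA, SLC16A3 and BDH1 reach beyond 0.5 on the log2 scale in both directions, so sizeable differences remain possible for them. Those of LDHB, SLC16A7, SLC16A1, BSG and OXCT1 reach beyond 0.5 in 1 direction, so the same holds for these genes in that direction.

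**Figure D3:**
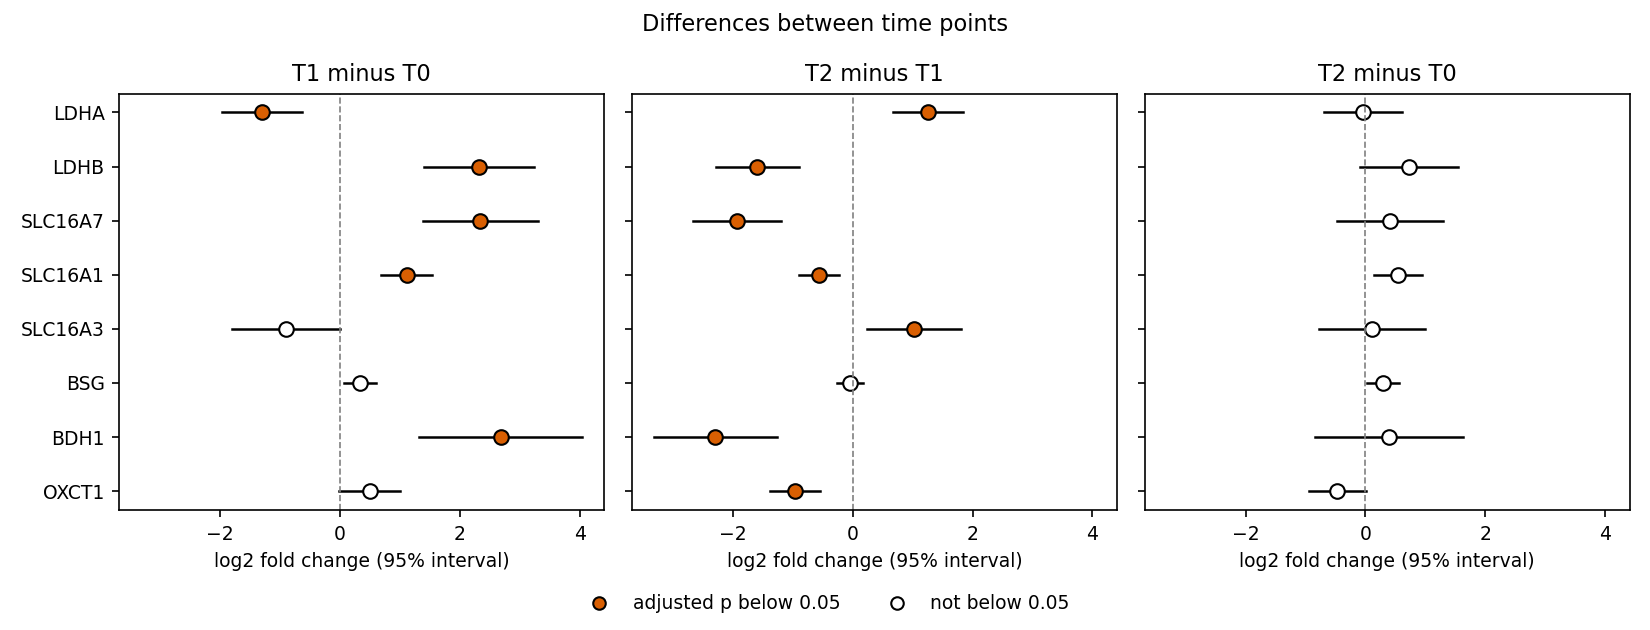
Log2 fold change of each gene with its 95% interval (edgeR) for the 3 comparisons of stages; filled points have an adjusted p below 0.05. Called genes lie on both sides of 0 for T1 against T0 and for T2 against T1, and no point is filled for T2 against T0.

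Genes of slow and fast fibres differed between the same stages. MYH7, the myosin heavy chain of slow fibres, had a median of 5666 CPM in T0 (4039 to 18930, highest in m12), 25550 in T1 (15830 to 66050, highest in m3) and 5842 in T2 (4035 to 25920, highest in m23). MYH7 rose from T0 to T1 by 1.86 ± 0.48 on the log2 scale (edgeR adjusted p = 0.0197; 1.499 and 0.0696 without m3 and m11, and 0.0501, 0.0702 and 0.0518 without m8, m10 or m13) and fell to T2 (-1.83 ± 0.37, adjusted p = 0.000946). Of the 10 slow fibre genes, 10 rose from T0 to T1 and 9 fell from T1 to T2. Their summed level had a range of 8554 to 32870 CPM in T0, 30420 to 137500 in T1 and 10340 to 42930 in T2. Of 12 fast fibre identifiers, 5 fell from T0 to T1 and 11 rose from T1 to T2. The fast sum was 52920 to 115900 CPM in T0, 2744 (m3) to 58050 in T1 and 53470 to 126400 in T2. The part of fibre composition in the differences of the 8 genes was not tested.

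Other cell types were followed through their own markers. Endothelial markers (6 of 7 with a symbol) summed to 194 to 293.5 CPM in T0, 163.6 to 236.5 in T1 and 140.7 to 227.8 in T2, and none was called between stages. Fibroblast markers (4 of 5) summed to 83.1 to 315.7 CPM in T0, 54.9 to 138.5 in T1 and 72.3 to 228.5 in T2, and 2 of them fell from T0 to T1. Adipocyte markers (3 of 6) summed to 78.1 to 176.3 CPM in T0, 114.3 to 322.6 in T1 and 120.2 to 274.9 in T2, and 1 rose from T0 to T1. From T1 to T2, 1 adipocyte marker and 1 macrophage marker fell and 1 Schwann cell marker rose. Macrophage markers (4 of 6) summed to 4.386 to 11.26 CPM in T0, 4.587 to 11.83 in T1 and 4.126 to 8.676 in T2. Schwann cell markers (2 of 7) summed to 10.69 to 15.52 CPM in T0, 9.635 to 18.61 in T1 and 9.924 to 21.38 in T2. TNNI3, the only listed heart gene with a symbol in the tables, had 0.4499 to 1.696 CPM in T0, 0.9573 to 7.358 in T1 (highest in m3) and 0.8235 to 1.938 in T2, and rose from T0 to T1 and fell to T2. No marker with a symbol was at 0 in all libraries, and red cell markers were not analysed here. The part of these cell types in the results was not tested.

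Within T1, LDHA and SLC16A3 were lower, and LDHB, BDH1 and OXCT1 higher, in libraries with more MYH7. These relations were computed on log2 CPM for the 8 genes in T1 (n = 8, exact permutation test) and T2 (n = 10, permutation test), 16 relations in all, two-sided, and T0 was too small. For LDHA in T1, r was -0.90 (exact permutation p = 0.00146, adjusted 0.0115) and rho -0.90 (p = 0.00456, adjusted 0.029). For SLC16A3 in T1, r was -0.93 (exact permutation p = 0.00109, adjusted 0.0115) and rho -0.88 (p = 0.00724, adjusted 0.029). LDHB followed MYH7 in the other direction, with r = 0.92 (exact permutation p = 0.00422, adjusted 0.0169) and rho = 0.71 (p = 0.0576, adjusted 0.121). BDH1 had r = 0.88 (exact permutation p = 0.00216, adjusted 0.0115) and rho = 0.95 (p = 0.00114, adjusted 0.0183), and OXCT1 had r = 0.75 (p = 0.0152, adjusted 0.0381) and rho = 0.88 (p = 0.00724, adjusted 0.029). Leaving out the 2 libraries farthest from the MYH7 median, m3 and m4, gave r = -0.90 for LDHA, -0.88 for SLC16A3, 0.45 for LDHB, 0.93 for BDH1 and 0.78 for OXCT1. All 5 relations rested on m3 for their test: without it alone the adjusted p was 0.165 for each, while r was -0.76 for LDHA, -0.81 for SLC16A3, 0.72 for LDHB, 0.81 for BDH1 and 0.71 for OXCT1. LDHB was also lost without m4 (adjusted p = 0.0772 by exact permutation), and OXCT1 without any of m1, m4, m5, m6, m7 or m11 (adjusted p from 0.0503 to 0.0839). Over the 6 libraries other than m3 and m11, r was -0.57 for LDHA, -0.65 for SLC16A3, 0.60 for LDHB, 0.60 for BDH1 and 0.41 for OXCT1, each with adjusted p = 0.454 by exact permutation over 8 relations.

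SLC16A7 and SLC16A1 did not pass in T1, with r = 0.49 (exact permutation p = 0.216, adjusted 0.314; rho = 0.74, p = 0.0458, adjusted 0.121) and r = 0.54 (p = 0.167, adjusted 0.297; rho = 0.29, p = 0.501, adjusted 0.801). BSG did not pass either (r = -0.006, exact permutation p = 0.989, adjusted 0.989). Without m3 and m4, r in T1 was 0.86 for SLC16A7, 0.38 for SLC16A1 and -0.82 for BSG. Relations that did not pass thus also depended on single libraries. In T2, 2 relations passed. SLC16A3 had r = -0.78 (permutation p = 0.00634, adjusted 0.0203), rho = -0.70 (p = 0.0314, adjusted 0.1) and r = -0.72 without m23 and m22, the libraries farthest from the median. LDHB had r = 0.73 (permutation p = 0.0167, adjusted 0.0381), rho = 0.52 (p = 0.134, adjusted 0.238) and r = 0.37 without those libraries. Both rested on m23 for their test, with r = -0.61 (adjusted p = 0.222 by permutation) and r = 0.47 (adjusted p = 0.347) when it alone was left out. LDHB was also lost without m15, m17, m20 or m22 (adjusted p from 0.051 to 0.0638 by permutation). LDHA, BDH1 and OXCT1, which passed in T1, did not pass in T2. LDHA had r = -0.45 (permutation p = 0.196, adjusted 0.314), rho = -0.08 (p = 0.84, adjusted 0.945) and r = -0.006 without m23 and m22. BDH1 had r = 0.08 in T2 (permutation p = 0.814, adjusted 0.868). OXCT1 had r = 0.55 (permutation p = 0.106, adjusted 0.213), or 0.94 without m23 and m22. Whether these values differ from those in T1 was not tested.

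**Figure D4:**
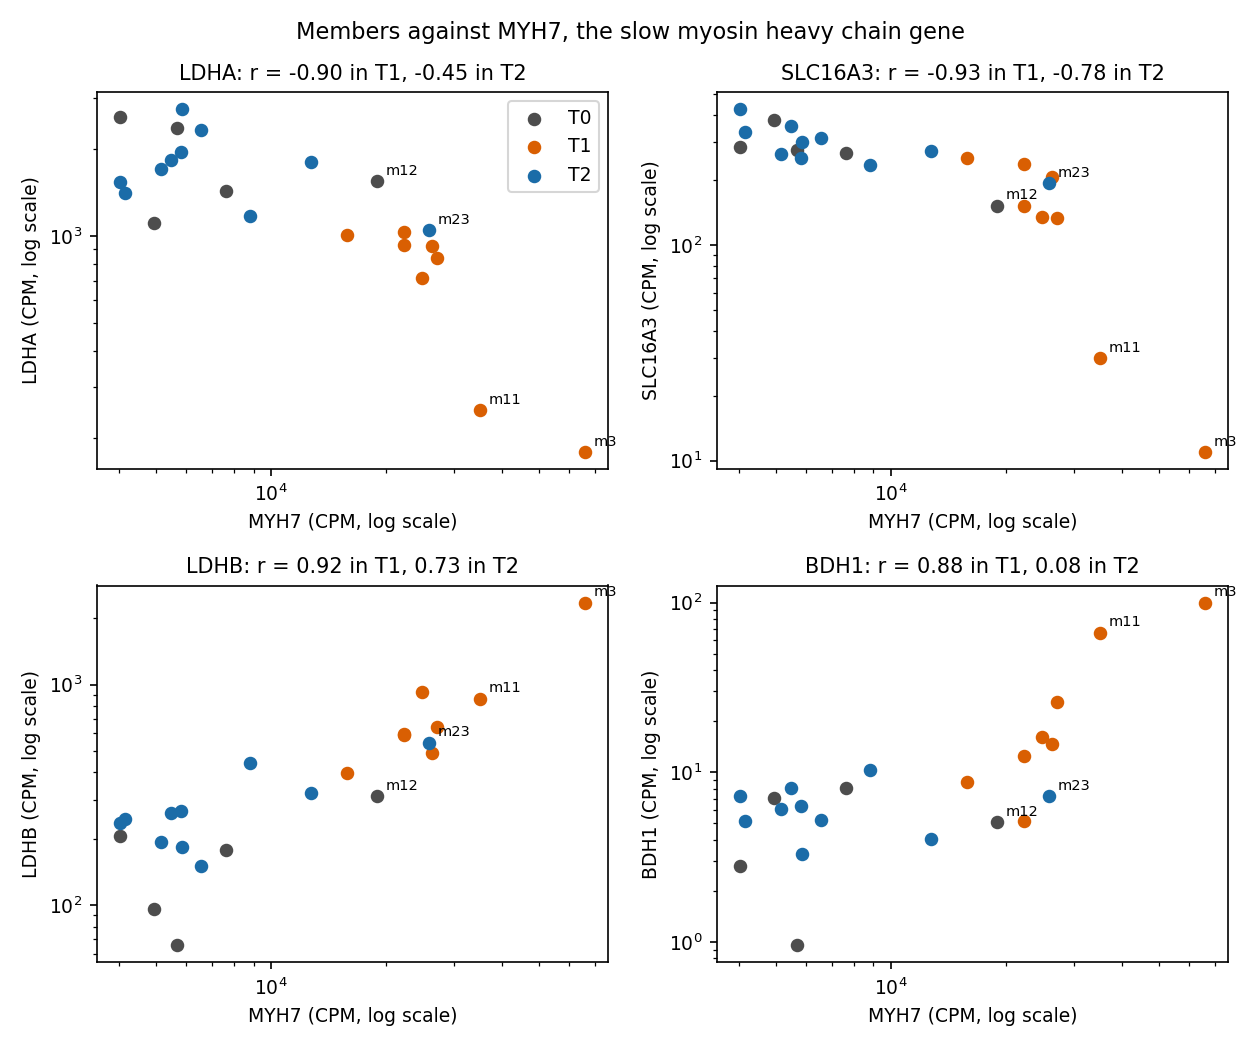
LDHA, SLC16A3, LDHB and BDH1 against MYH7, all in CPM on log axes, with 1 point per library coloured by stage and Pearson's r of log2 CPM within T1 (n = 8) and T2 (n = 10) above each panel. LDHA and SLC16A3 are lowest, and LDHB and BDH1 highest, in the T1 library m3 with the most MYH7.

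Library m12 of T0 and library m23 of T2 had MYH7 levels inside the T1 range, and were looked at after their values were seen. SLC16A7 was 0.742 CPM in m12 and 5.00 in m23, under the T1 low of 8.49. LDHA was 1552 CPM in m12 and 1050 in m23, above the T1 high of 1026. LDHB was 312.7 CPM in m12, under the T1 low of 397.9, and 545.5 in m23, inside the T1 range. SLC16A1 was 129.2 CPM in m12, just under the T1 low of 134.9, and 146 in m23, inside that range. BDH1 was 5.09 CPM in m12, just under the T1 low of 5.13, and 7.25 in m23, inside that range. SLC16A3 was 151.6 CPM in m12 and 193.5 in m23, both inside the T1 range. OXCT1 was 40.59 CPM in m12, just under the T1 low of 41.68, and 43.7 in m23, inside the T1 range. BSG was 110 CPM in m12 and 138 in m23, both inside the T1 range. SLC16A7 was thus outside the T1 range in both libraries, and so was LDHA, though in m23 only just. LDHB, SLC16A1, BDH1 and OXCT1 were outside it in m12 but not in m23. For BDH1, a value inside that range does not set m23 apart, since only 2 of 10 T2 libraries were below all of T1. With 1 library per stage, no test was made.

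Genes with the most similar pattern were looked for among 6400 expressed genes with a symbol, by Pearson's r of log2 CPM over 23 libraries after each stage mean was subtracted. The points share libraries and scaling, so these r values are descriptions. LDHA was most like PKM (r = 0.97) and PGK1 (0.95), which encode glycolytic enzymes, and like an identifier annotated as MYH2, a fast myosin heavy chain (0.93, or 0.77 and rank 26 without m3 and m11). Myosin heavy chain genes are near-copies, so the reads of that identifier are uncertain. It had a log2 fold change of -3.42 for T1 against T0 (edgeR adjusted p = 0.00364). Another identifier with the symbol MYH2 had 0.17 and was not called (adjusted p = 0.892). LDHB was most like ME3, a mitochondrial malic enzyme (0.88), MYL2, a slow myosin light chain (0.87), and TNNC1, the slow troponin C (0.86). SLC16A3 was most like PGP (0.88), SNTB1 (0.88) and PKM (0.87), which had r of 0.73, 0.44 and 0.37 without m3 and m11, at ranks 10, 334 and 601. BDH1 was most like FABP3, a fatty acid binding protein of oxidative muscle (0.87), TWF2 (0.86) and FLAD1, an enzyme of FAD synthesis (0.84), at ranks 5, 8 and 12 without m3 and m11.

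SLC16A7 was most like TRAPPC3 (0.80), DGAT2, an enzyme of triglyceride synthesis (0.79), and ADAM17, a membrane protease (0.76). For SLC16A1 the genes were LMOD2, an actin filament regulator of muscle (0.78), ANXA3 (0.75) and SMPDL3A (0.75), none of which was among the 3 most like it by rank correlation. OXCT1 was most like ALDH6A1, an enzyme of valine breakdown (0.72), DHTKD1, an enzyme of lysine breakdown (0.71), and LARS2, the mitochondrial leucyl-tRNA synthetase (0.70). Without m3 and m11 these had r of 0.61, 0.60 and 0.57 with OXCT1, at ranks 24, 30 and 42. BSG was most like NFKBIL1 (0.76), ECSIT (0.73) and C19orf60 (0.73), at ranks 4, 15 and 24 without m3 and m11. Among the 8 genes themselves, LDHA ran with SLC16A3 (r = 0.82, or 0.22 without m3 and m11) and against BDH1 (-0.86, or -0.68) and LDHB (-0.66, or -0.50).

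Of 15 other genes of lactate and pyruvate handling, 8 were tested: 2 rose from T0 to T1 and none fell, while 1 rose and 3 fell from T1 to T2. Their median log2 fold changes were 0.51 and -0.01. LDHD, the mitochondrial D-lactate dehydrogenase, had mean levels of 35.2, 63.8 and 35.7 CPM in T0, T1 and T2. It rose by 0.86 ± 0.20 on the log2 scale and then changed by -0.83 ± 0.16 (edgeR adjusted p = 0.0118 and 0.000665). MPC2, a subunit of the mitochondrial pyruvate carrier, had means of 58.6, 84.2 and 82.0 CPM and rose from T0 to T1 (0.52 ± 0.15, edgeR adjusted p = 0.0349; 0.42 and 0.0559 without m3 and m11). MPC2 was also higher in T2 than in T0 (0.48, edgeR adjusted p = 0.0254), as was its partner MPC1 (0.60, adjusted p = 0.0126). The MPC2 call for T1 against T0 was also lost without m1, m9, m10 or m13, with adjusted p up to 0.0922, and with only 2 stages in the fit (0.0725). NPTN, a relative of basigin, rose from T1 to T2 (0.38 ± 0.10, edgeR adjusted p = 0.00559).

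Of 11 other SLC16 family genes, 3 were tested. SLC16A5, listed here only as a member of that family, had means of 11.4, 6.26 and 9.41 CPM in T0, T1 and T2. It fell from T0 to T1 (-0.85 ± 0.21, edgeR adjusted p = 0.0178) and rose to T2 (0.58 ± 0.18, adjusted p = 0.0217). Neither SLC16A5 call held without m3 and m11 (-0.68 and 0.41, edgeR adjusted p = 0.0572 and 0.0838), and the first was also lost without m10 (0.0673) or m13 (0.0655). SLC16A10, an aromatic amino acid transporter, had -0.19 for T1 against T0 (edgeR adjusted p = 0.603), and SLC16A6 had 0.27 for T2 against T1 (adjusted p = 0.56).

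Of 6 other ketone body genes, 4 were tested: 1 rose from T0 to T1, and 1 rose and 2 fell from T1 to T2. ACAT1, the mitochondrial thiolase that follows OXCT1, had means of 156, 255 and 190 CPM in T0, T1 and T2. It rose by 0.71 ± 0.19 on the log2 scale (edgeR adjusted p = 0.0234) and then changed by -0.43 (adjusted p = 0.0382). The rise of ACAT1 was not called without m3 and m11 (0.48, edgeR adjusted p = 0.0542), nor without m8, m10 or m13 (up to 0.0625), nor with only 2 stages in the fit (0.0685). From T1 to T2, BDH2, a cytosolic short-chain dehydrogenase, rose (0.67 ± 0.14, edgeR adjusted p = 0.000925) and AACS, which activates acetoacetate in the cytosol, fell (-0.52 ± 0.14, adjusted p = 0.00795).

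Males and females were compared with stage in the model, since T2 had more males. None of the 8 genes was called, and edgeR called 0 of 11735 genes (0%), with 716 at an unadjusted p under 0.05, while DESeq2 called 1 and limma voom 3. BDH1 had the largest difference of the 8, 0.82 ± 0.44 on the log2 scale for males minus females (95% interval -0.09 to 1.74, edgeR adjusted p = 0.817). LDHB followed with 0.57 ± 0.29 (interval -0.04 to 1.18, adjusted p = 0.812). These intervals include no difference as well as a large one. Within T0, the 2 females and 3 males did not overlap for LDHA (2373 to 2579 CPM in females, 1106 to 1552 in males). The same held for BDH1 (0.956 to 2.788 and 5.088 to 8.027 CPM) and for OXCT1 (54.87 to 63.27 and 28.18 to 54.53 CPM). The other members overlapped there, and no test was made within T0. No stage difference was called as differing between the sexes by edgeR (0% of 12347 genes, with 517, 195 and 560 at an unadjusted p under 0.05 for T1 against T0, T2 against T1 and T2 against T0; DESeq2 called 4 in each and limma voom 0).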

How the data were processed

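RNA was extracted from gluteus medius biopsies and sequenced with 50 cycles in 6 technical repetitions, per the labels' protocols. The submitters' processing notes list the tools FastQC, STAR, RSEM and DESeq2 with neither versions nor order (genome build: not given in the sources used here). In the deposit, the authors gave tables of expected counts per gene and per transcript, of which 0 were not exactly whole in the files. The authors' deposited comparison tables supplied gene symbols (8842 of 9628 identifiers) and coordinates; their fold changes and p-values were not used, because the labels do not tie their group letters to stages.

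Genes were kept by filterByExpr (minimum count 10, minimum total 15), which left 11545 genes with 99.93% of counts. After TMM scaling, all 23 libraries were fitted together with the robust quasi-likelihood F test of edgeR 4.0.16 in R 4.3.3, and stages were compared by contrasts at a Benjamini-Hochberg adjusted p of 0.05. The SE is the absolute log2 fold change divided by the square root of F. CPM use TMM-scaled library sizes, and log2 CPM a prior count of 2. Library totals were 12185608 to 23641809, and no 2 libraries held identical values. The test was checked on simulated data with 100 genes changed 2-fold and 100 changed 4-fold. For T1 against T0, T2 against T1 and T2 against T0 it recovered 74%, 83% and 77% of the 2-fold changes. Recovery of the 4-fold changes was 96%, 96% and 94%, and there were 15, 6 and 10 false calls. The simulated libraries were not given the differences in RNA composition seen between these libraries.

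Named are all 8 genes, the 2 genes of each further pathway list with the smallest p in T1 against T0 and in T2 against T1, the 3 genes most like each of the 8 (mean log2 CPM of at least 2), and MYH7; MPC1 was added after its values were seen. A gene that this rule names is not reported here. The genes, lists and markers were chosen with earlier results of these data known. Alternatives were DESeq2 size factors, DESeq2 1.42.0, limma 3.58.1 voom with sample weights, no filter, a stricter filter (CPM of at least 1 in 5 libraries), no mitochondrially encoded genes, sex as covariate, a fit that was not robust, only the 2 stages compared, and each library left out. Leaving out m3 with m11, or m3 with m12, was added after seeing the data. Figures used matplotlib 3.10.9.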

Additional observations from a re-analysis of the deposited data

Results flagged for a closer look

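BSG in T0 had 1 library far from the other 4: m13 had 135 CPM and the next highest, m12, had 110 CPM. The gap was 0.747 of the group's range, above the critical value of 0.71 for 5 libraries (Dixon's test). Chance gives such a gap in about 1 of 20 groups, and 24 groups (8 genes at 3 stages) were looked at.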

How the results depend on the processing

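No paired analysis was possible because no label names the horse behind a library. For T1 against T0, 798 genes were called, and 1512 with limma voom, 496 without m3 and m11, and 346 to 904 when 1 library was left out (346 without m10). The 1 fall (LDHA) became 0 with only 2 stages in the fit and 0 to 1 across left-out libraries. For T2 against T1, the 2 rises among the 8 became 1 with no filter, with sex as covariate and with only 2 stages, and 1 to 2 across left-out libraries, through SLC16A3. For T2 against T0, 1851 genes were called, and 2940 with limma voom, 2947 without m3 and m12, and 986 (without m13) to 2414. The 0 rises among the 8 became 1 with DESeq2, 2 with limma voom, 1 without m3 and m11, 2 without m3 and m12 (LDHB, SLC16A1), and 0 to 1 across left-out libraries. Values near 0 changed sign there: LDHA was 0.026 with sex as covariate and -0.16 to 0.14 across left-out libraries, and SLC16A3 was -0.026 without m3 and m12 and -0.030 (without m12) to 0.29.

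For the 8 genes the transcript table held the same counts as the gene table, so its calls for them are no separate check. It called 614 for T1 against T0 (1189 with DESeq2, 1182 with limma voom, 345 without m3 and m11, 258 to 706 across left-out libraries), with 1 fall among the 8 (0 with only 2 stages, 0 to 1). For T2 against T1 it gave 1 rise (2 with DESeq2, limma voom, without m3 and m11, and without m3 and m12; 1 to 2). For T2 against T0 it called 1525 (2302 with DESeq2, 2571 with limma voom, 2630 without m3 and m12, 638 to 2038), with 0 rises (1 with DESeq2, 2 with limma voom, 2 without m3 and m12, 0 to 1). LDHA was 0.024 with sex as covariate (-0.17 to 0.13), and SLC16A3 -0.030 without m3 and m12 (-0.036 to 0.28). The sex comparison called 0 genes (DESeq2 1, limma voom 3, 0 to 1), and the interactions 0 (DESeq2 4 in each). Of the relations with MYH7, 7 passed (0 to 7 across left-out libraries, 0 without m3), and r changed sign for BSG in T1 (-0.68 to 0.20), LDHA in T2 (-0.56 to 0.014) and BDH1 in T2 (-0.13 to 0.27). By rank correlation, 0 of the 3 genes most like SLC16A1 and 1 of 3 for each of SLC16A7, BDH1 and OXCT1 were among the top 3. The causes of these changes were not tested.

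T0 had 5 libraries, so its comparisons depended on single ones, such as m10 and m13. Intervals for T2 against T0 were wide. SLC16A7 had as few as 7 counts in a library, which limits its T0 values. Without gene lengths, LDHB's share of the LDHA and LDHB counts compares libraries, not the amounts of the 2 RNAs, and symbols were limited to those in the authors' tables.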
